A study of Homo sapiens with 4 samples.

Results

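In HL-60 cells, a leukemia line of the promyelocyte stage, 1244 stretches of open chromatin inside protein-coding genes were listed in both control libraries and in neither library of cells given all-trans retinoic acid (ATRA). These lost regions were chosen by the presence of their peaks in the 4 deposited peak lists, so their absence after ATRA is how they were selected and not a result. They are 1244 of the 78063 regions formed by merging all peaks of the series that overlapped by at least 1 bp, with a centre inside a protein-coding gene and outside promoters, a promoter being 1 kb upstream to 100 bp downstream of a transcription start site (TSS). A region inside a gene with a peak in all 4 lists is called kept, and one with a peak in both ATRA lists and in neither control list is called gained. There were 8186 kept and 3206 gained regions. The assay was ATAC-seq: Tn5, a transposase, places sequencing adapters into DNA that is accessible, and dense insertions form a peak.

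The ATRA group had 1 µM ATRA for 4 days and the control group had the ethanol vehicle over the same period, with 2 libraries in each group and no genetic change in either. All libraries came from this 1 line, so they carry a single genetic background. ATRA binds the retinoic acid receptors and drives these cells toward granulocytes. As background, open regions within introns are often enhancers, where sequence-specific factors bind and act on the host gene or on another gene nearby. GATA factors bind the letters AGATAA or TGATAA and are known for their work in blood progenitors, mast cells, eosinophils and the erythroid and megakaryocyte lineages. In those cells they often act together with TAL1, whose E-box has the letters CAGATG, and with RUNX factors. PU.1 and CEBP factors are the main regulators of granulocyte and monocyte fate.

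The control 1 list held 42081 peaks, the control 2 list 45903, the ATRA 1 list 43494 and the ATRA 2 list 63541. The ATRA 2 library stood apart, since its peaks were wider, with a median of 416 bp against 291 to 328 bp, and covered 31.6 Mb against 16.3 to 17.5 Mb in the other libraries. Of 7 promyelocyte marker promoters, 3 held a peak in each list but ATRA 2, which had 5. CD33 and SPI1 were in all 4 lists, and ELANE and AZU1, which encode granule proteins of this stage, in 0. None of the T cell, erythroid or hepatocyte marker promoters held a peak in any list.

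The regions shown first are 9 of the 10 lost regions with a GATA match that ranked highest in the control lists among those whose printed stretch held no exon, with 1 chromosome left out of the choice, so that higher-ranked regions with a match in ANGPT1, MTFR1, NUGGC and ZBTB16 are not shown. GATA was chosen because it was the motif in which lost and kept regions differed most. Each is the plus strand of GRCh37, 5′ to 3′, in the intron of the gene named, with 57 bases on either side of the match nearest to the centre. Capitals mark GATA matches, which read TTATCT or TTATCA where the match lies on the minus strand.
MYO5B (chr18:47407140-47407259): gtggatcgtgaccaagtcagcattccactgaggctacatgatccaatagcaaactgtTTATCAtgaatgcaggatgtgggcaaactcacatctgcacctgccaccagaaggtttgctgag
MARCHF1 (chr4:164816692-164816811): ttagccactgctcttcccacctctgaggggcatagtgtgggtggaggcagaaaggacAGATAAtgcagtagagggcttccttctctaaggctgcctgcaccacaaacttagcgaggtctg
PATJ (chr1:62246980-62247099): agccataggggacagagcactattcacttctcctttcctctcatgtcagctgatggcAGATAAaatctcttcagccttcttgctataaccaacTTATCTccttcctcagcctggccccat
PDE11A (chr2:178554453-178554572): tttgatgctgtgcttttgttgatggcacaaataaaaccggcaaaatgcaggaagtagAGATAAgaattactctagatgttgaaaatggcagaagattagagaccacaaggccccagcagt
NTM (chr11:131519823-131519942): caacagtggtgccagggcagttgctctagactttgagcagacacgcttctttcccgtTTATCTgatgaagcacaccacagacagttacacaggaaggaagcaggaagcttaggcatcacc
BRI3 (chr7:97903252-97903371): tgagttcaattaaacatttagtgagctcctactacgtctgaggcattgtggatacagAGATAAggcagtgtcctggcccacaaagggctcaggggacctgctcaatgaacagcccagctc
NRCAM (chr7:108059647-108059766): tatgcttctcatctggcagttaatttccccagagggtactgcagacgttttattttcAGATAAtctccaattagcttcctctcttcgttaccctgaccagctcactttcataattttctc
PLCL1 (chr2:199009460-199009579): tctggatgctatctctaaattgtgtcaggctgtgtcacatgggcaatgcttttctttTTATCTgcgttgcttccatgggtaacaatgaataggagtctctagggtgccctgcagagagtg
ZBTB16 (chr11:113974352-113974471): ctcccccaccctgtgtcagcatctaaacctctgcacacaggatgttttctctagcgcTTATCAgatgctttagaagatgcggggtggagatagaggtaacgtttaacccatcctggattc

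The match lay within 26 bp of the region centre in 7 of these 9 sequences, and the exceptions were NRCAM, at 38 bp, and PDE11A, at 69 bp. The printed stretch of PATJ, which encodes a scaffold of cell polarity, held 2 matches, and the 200 bp about its centre held 3. The MARCHF1 region had RUNX and MYB matches beside its GATA match, in an intron of a membrane ubiquitin ligase that acts on MHC class II. The ZBTB16 region, in the gene of the zinc finger repressor PLZF, and the MYO5B region, in a myosin of recycling endosomes, each had a TAL1 E-box in the same 200 bp.

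For contrast, the 3 highest-ranked lost regions under the same conditions that had a PU.1, CEBP or RUNX match and no GATA match are given in the same form. Capitals mark the CEBP match (TTGCNNAA) in DGKH and CD36 and the PU.1 match (GAGGAAGT) in ARPP21.
DGKH (chr13:42646159-42646280): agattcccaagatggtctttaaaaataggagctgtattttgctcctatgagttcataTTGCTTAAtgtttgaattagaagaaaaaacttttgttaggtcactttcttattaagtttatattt
CD36 (chr7:80193114-80193235): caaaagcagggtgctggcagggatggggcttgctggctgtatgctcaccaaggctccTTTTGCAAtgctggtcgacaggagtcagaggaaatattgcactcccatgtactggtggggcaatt
ARPP21 (chr3:35787474-35787595): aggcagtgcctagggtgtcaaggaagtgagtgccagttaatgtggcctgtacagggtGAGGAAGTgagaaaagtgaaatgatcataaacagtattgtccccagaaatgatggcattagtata
DGKH encodes a diacylglycerol kinase, CD36 a scavenger receptor of monocytes and platelets, and ARPP21 a phosphoprotein best known from neurons. These regions had high scores in both controls, with 484.2 and 241.68 in DGKH, 285.18 and 389.33 in CD36 and 465.12 and 200.57 in ARPP21 for control 1 and control 2, on the scale of the peak caller.

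A further 3 sequences were picked after their values were seen, for their host genes. GATA1 encodes a GATA factor itself, CD34 is a surface marker of blood progenitors, and the ZBTB16 region shown here had the most GATA matches of the 6 lost regions in that gene.
GATA1 (chrX:48648062-48648181): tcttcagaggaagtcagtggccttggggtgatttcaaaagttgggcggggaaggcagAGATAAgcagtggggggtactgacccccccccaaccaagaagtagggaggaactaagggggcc
CD34 (chr1:208077829-208077948): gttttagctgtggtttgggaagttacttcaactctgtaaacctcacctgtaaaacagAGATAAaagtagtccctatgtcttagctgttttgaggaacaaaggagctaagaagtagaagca
ZBTB16 (chr11:113948579-113948698): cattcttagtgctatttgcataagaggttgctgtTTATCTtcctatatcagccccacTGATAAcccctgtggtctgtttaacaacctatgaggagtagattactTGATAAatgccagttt
The GATA1 sequence lies in intron 1 of 5, and its match is 6 bp from the region centre. The CD34 sequence lies in intron 1 of 7, with the match 8 bp from the centre. The ZBTB16 sequence holds 3 of the 4 matches found in the 200 bp about its centre, in intron 2 of 6.

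The label of intronic regions held for most members. The centres of 1125 regions (90.4%) lay in an intron and in no exon, 38 lay in coding exons, 46 in untranslated parts of coding transcripts, 22 in exons of transcripts without coding sequence and 13 in exons of noncoding genes. The share in introns alone was 84.3% among kept and 87.5% among gained regions. Of the 998 lost regions in an intron of the canonical transcript, 316 (31.7%, 95% Wilson interval 28.9 to 34.6) lay in the first intron, against 30.5% of kept and 30.5% of gained regions. Centres lay a median of 20085.5 bp from a TSS (quartiles 6389 and 53303.5), compared with 16345 bp for kept and 16843 bp for gained regions. Lost regions were also narrower, with a median of 352.5 bp against 573 bp for kept regions, which merge the peaks of 4 lists, and 419 bp for gained regions.

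Of the 11675 regions inside genes with a peak in both control lists, 10.7% were lost (1244 regions, 95% Wilson interval 10.1 to 11.2). Over the whole genome, promoters and regions between genes included, 8.47% of 31091 control regions were lost. Another 2037 control regions inside genes kept a peak in ATRA 2 alone and 208 kept one in ATRA 1 alone, so the longer ATRA 2 list decided most of the cases in which the ATRA lists differed. Without ATRA 2, 3329 regions (28.8% of control regions inside genes) had no ATRA peak. Without control 1 the number was 3432 (19.4%) and without control 2 it was 2982 (19.0%), as regions listed in 1 control only then entered. Absence from a list means that the peak caller found no peak, and with no read counts in the lists a region just under its threshold and a closed region cannot be told apart.

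The limits of the rule fell close to ATRA peaks in a minority of regions. The lost regions in PRR36 and HINT1 lay 8 bp from an ATRA peak and that in ADGRG7 lay 16 bp away. In all, 101 lost regions had an ATRA peak within 500 bp, and the median gap was 6815 bp. Just outside the rule, the control region in MIPEP was overlapped by an ATRA peak by 39 bp, that in TBRG1 by 63 bp and that in KCNMA1 by 65 bp. The lost region nearest to a TSS had its centre 132 bp from it, and 115 lay within 2 kb. Of the lost regions, 193 (15.5%) lay within 50 kb of another one, and the share for other regions is not given here.

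Each peak has a score from the peak caller, from 50 upward, which ranks peaks within a list. Lost regions ranked low to middling in both controls. Their median percentile was 39.1 in control 1 (quartiles 19.0 and 60.5) and 38.5 in control 2 (quartiles 20.1 and 57.7), while kept regions had medians of 61.2 and 67.2. The median score of lost regions was 83.8 in control 1 and 77.4 in control 2. Leaving out control 2 as a condition of the rule gave a median percentile of 25.8 in control 1, and leaving out control 1 gave 23.2 in control 2. The ranks of the same region in both controls had a Spearman correlation of 0.436 over the 1244 lost regions and 0.644 over the 8186 kept regions. These are correlations across regions of the same pair of libraries, given as a description.

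The share of control regions that were lost fell in each step of the mean control percentile. It was 25.8% for percentiles up to 20, then 17.4%, 10.1%, 6.24% and 2.76% for percentiles over 80. These shares describe the selection. The GATA share, which the rule did not use, mostly rose with rank among lost regions. In the same steps it was 33.9%, 38.5%, 48.6%, 54.0% and 49.1%, the last of 55 regions. With the lost regions ranked by mean percentile and divided into 4 sets of 311, it was, from the weakest to the strongest set, 33.8% (95% Wilson interval 28.7 to 39.2), 40.5%, 44.1% and 54.0% (48.5 to 59.5). RUNX matches were in 10.9%, 16.1%, 17.0% and 18.3% of the same sets, and the letters of the GATA motif written backwards, a control for base composition, in 12.9%, 15.4%, 13.2% and 21.2%.

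**Figure D1:**
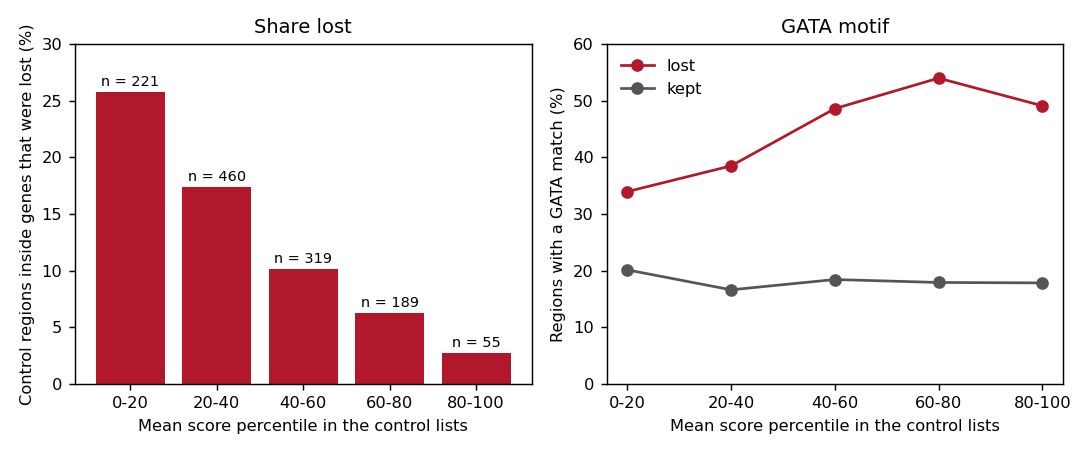
Left, percentage of control regions inside genes that were lost (bars, number of lost regions above each), by mean percentile of the peak score in the control lists. Right, percentage of lost and kept regions with a GATA match in the same classes (points). The share lost fell from 25.8% to 2.76%. The GATA share of lost regions was 33.9% in the lowest class, 54.0% at 60 to 80 and 49.1% over 80. That of kept regions was 16.6% to 20.1%.

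Motifs were searched on both strands in the 200 bp about the centre of each region. A GATA match was present in 536 of 1244 lost regions, or 43.1% (95% Wilson interval 40.4 to 45.9). It was present in 17.9% of kept, 15.0% of gained and 18.8% of all 78063 regions. The difference from kept regions was 25.2 percentage points (95% Newcombe interval 22.3 to 28.1) and that from gained regions was 28.1 points (25.1 to 31.1). These intervals cover counting error over regions, which share libraries and are not replicates. The backward GATA letters, AATAGA or AATAGT, were found in 15.7% of lost and 13.1% of kept regions, a difference of 2.54 points (0.487 to 4.79). Among regions with a mean control percentile of 40 to 80 the GATA difference from kept regions was 32.5 points. Searching the whole region in place of 200 bp gave 8.14 points, where kept regions had a median width of 573 bp and lost regions of 352.5 bp, and the part of width in this was not tested. The difference was 10.5 points without ATRA 2 and 13.4 points without control 1.

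The GATA share varied with the libraries in which a region was listed. Regions with peaks in both controls and in ATRA 1 had GATA in 41.8% (n = 208), and those with peaks in both controls and in ATRA 2 had it in 21.3% (n = 2037). Regions in control 1 alone had it in 40.9% (n = 1715), and regions in control 2 alone in 24.5% (n = 2148). Regions in ATRA 1 alone had 18.1% and regions in ATRA 2 alone 16.4%. Of these 6 classes and the lost regions, those with shares over 40% all lacked a peak in ATRA 2 and had one in control 1. Whether the length of the ATRA 2 list contributed to this was not tested. Lost regions between genes had a GATA share of 46.5% (n = 1270), which differed from that inside genes by -3.45 points (-7.32 to 0.439), an interval that holds 0.

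**Figure D2:**
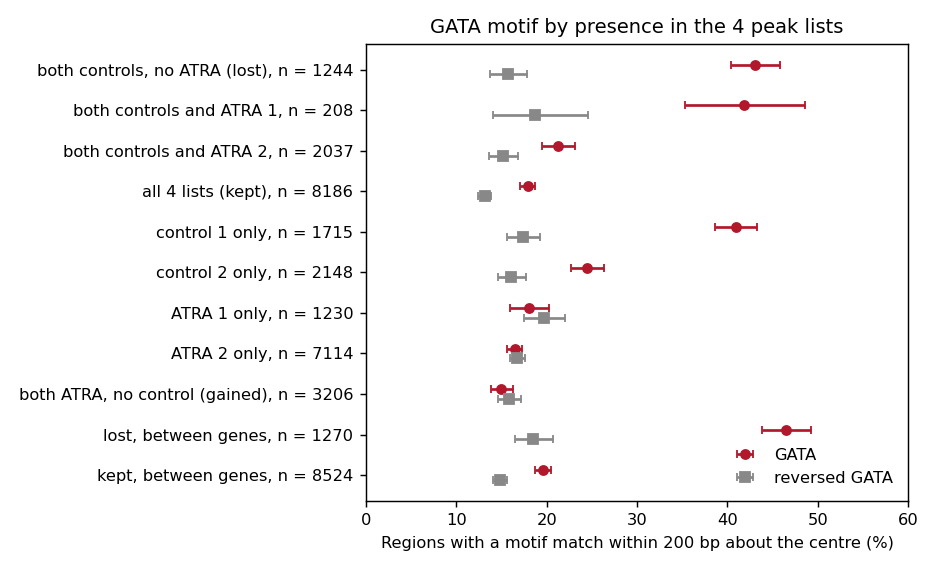
Percentage of regions with a GATA match (circles) or a match to the backward GATA letters (squares) within 200 bp about the centre, with 95% Wilson intervals, for regions grouped by the lists that held a peak; all but the last 2 rows are inside genes. The lost regions sit at 43.1%, near regions of control 1 alone at 40.9% and apart from kept regions at 17.9%.

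Over all peaks inside genes, the GATA share was 23.6% in control 1, 21.03% in control 2, 17.4% in ATRA 1 and 17.4% in ATRA 2. The control lists include the peaks of the lost regions, and by the rule the ATRA lists do not. This comparison is therefore not independent of the selection, and the part of the lost regions in it was not tested. Both controls were above both ATRA libraries. The means were 22.3% ± 1.80 and 17.4% ± 0.0242 (SD, n = 2), a difference of 4.92 points with a two-sided exact permutation p of 0.333, the smallest that 4 libraries allow. When the whole width of each peak was searched the difference was 0.276 points, and the wide-peaked ATRA 2 then had the highest share, 35.0%. The TAL1 E-box was found in 18.7% and 18.3% of control peaks and 16.04% and 15.95% of ATRA peaks inside genes. PU.1 ran the other way, with 9.38% and 8.59% in the controls and 11.3% and 10.5% after ATRA. Both differences had the same exact p of 0.333, unadjusted.

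The GATA matches were concentrated at the middle of the lost regions. Within 50 bp of the centre there were 3.45 matches per kb and region, against 1.07 in kept and 0.717 in gained regions. At 400 to 500 bp from the centre the densities were 1.27, 1.29 and 1.21. Lost regions between genes had 3.78 within 50 bp and 1.33 at 400 to 500 bp, so the concentration was not particular to those inside genes. The backward letters showed no such peak in lost regions, with 0.659 matches per kb at the centre and 1.24 at 400 to 500 bp. Most lost regions with a match had 1 copy (396 regions), while 113 had 2, 24 had 3 and 3 had 4 or more. Thus 11.3% of lost and 3.03% of kept regions had 2 or more.

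**Figure D3:**
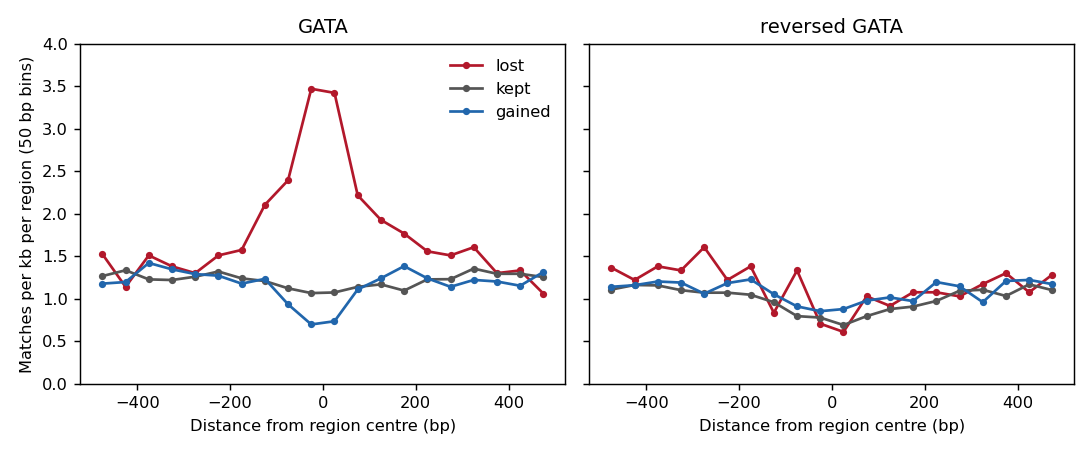
Matches per kb and region (vertical axis) to GATA (left) and to the backward letters (right), in 50 bp bins by distance from the region centre in bp, for 1244 lost, 8186 kept and 3206 gained regions. Of the lines shown, only that of GATA in lost regions rises at the centre, to 3.45 per kb within 50 bp. At 400 to 500 bp the 3 GATA lines run together between 1.21 and 1.29 per kb. Lost regions between genes, which are not drawn, had 3.78 per kb within 50 bp.

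Of the 12 motifs, 5 had an interval above 0 against kept regions and 2 an interval below it. Besides GATA these were the TAL1 E-box (23.6% of lost against 16.6% of kept regions, a difference of 7.06 points, 4.64 to 9.62), MYB (CAACGG or CAACTG or TAACGG or TAACTG; 28.5% against 21.6%, 6.93 points, 4.32 to 9.65), RUNX (AACCACA; 15.6% against 9.27%, 6.32 points, 4.31 to 8.53) and CEBP (15.1% against 12.8%, 2.33 points, 0.311 to 4.55). The CEBP difference was about as large as that of the backward GATA letters. MYB is a factor of cycling progenitors and RUNX1 a general regulator of blood cells. Over all regions the shares were 15.1% for the TAL1 E-box, 20.9% for MYB, 8.55% for RUNX and 12.3% for CEBP. In lost regions between genes they were 23.3%, 29.1%, 14.9% and 15.7%, close to those of lost regions inside genes. Against lost regions between genes, 1 of the 12 motifs, ETS (CCGGAAGT), had an interval above 0, and 0 had an interval below it.

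CTCF, the factor of chromatin loops and boundaries, had its motif in 2.73% of lost and 7.84% of kept regions, a difference of -5.11 points (-6.09 to -3.91). The IRF motif (GAAANNGAA), of interferon regulatory factors, was in 4.74% and 7.15%, a difference of -2.40 points (-3.60 to -0.972). The PU.1 share of lost regions, 8.20%, was within -0.608 points (-2.14 to 1.15) of that of kept regions and -5.96 points (-7.84 to -3.94) from that of gained regions, of which 14.2% had it. Gained regions had GATA in 15.0% and PU.1 in 14.2%, against 18.8% and 8.94% of all regions. Lost regions had GATA in 536 regions and PU.1 in 102. The motifs differ in length and in the letters allowed, so their shares are not on one scale. The AP-1 motif (TGACTCA or TGAGTCA) was in 6.35% of lost and 6.35% of kept regions. The MYC E-box (CACGTG) was in 4.74% of lost, 4.02% of kept and 3.12% of gained regions. The ETS motif CCGGAAGT, which shares its last letters with the PU.1 motif but cannot match at the same place, was in 5 lost regions. The DR5 repeat bound by retinoic acid receptors was in 0 of 1244 lost regions, which allows a share of up to 0.241% by a floor of 3 counts (95% Wilson upper limit 0.308%), in 3 kept and in 15 gained regions. Over all regions the shares were 5.87% for CTCF, 8.08% for IRF, 8.94% for PU.1, 5.72% for AP-1, 3.73% for the MYC E-box, 1.11% for ETS and 0.0974% for DR5. A match of these letters is a description and not a bound site.

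**Figure D4:**
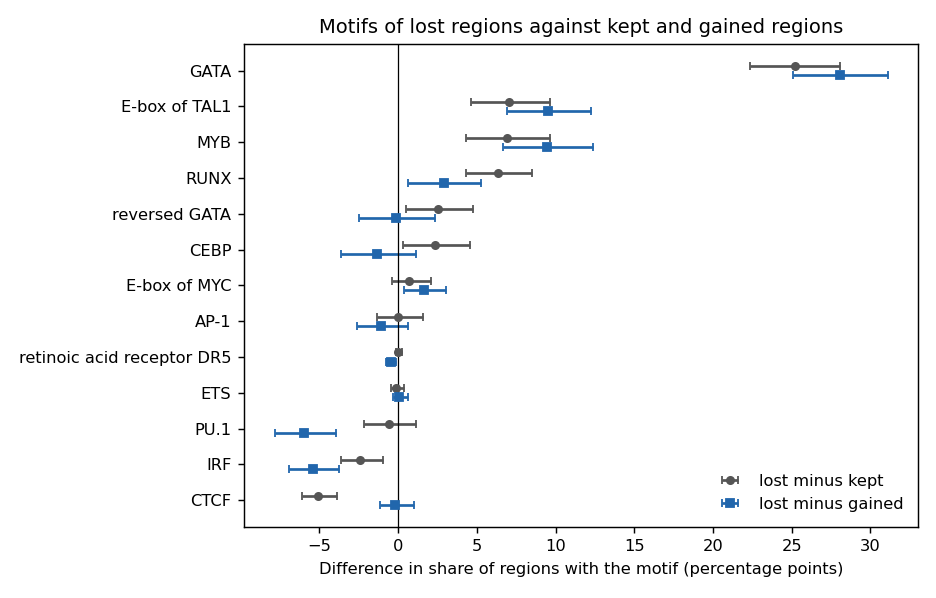
Share of lost regions with each motif minus the share of kept (circles) or gained regions (squares), in percentage points with 95% Newcombe intervals. GATA stands at 25.2 and 28.1 points, the next motif against kept regions, the TAL1 E-box, at 7.06 points, and CTCF at -5.11 points against kept regions.

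Lost regions with and without GATA carried RUNX, MYB, TAL1 E-box and PU.1 matches in shares whose differences had intervals that held 0. RUNX was found in 15.5% of the 536 regions with GATA and 15.7% of the 708 without, with a difference of -0.193 points (-4.21 to 3.95). MYB was in 29.1% and 28.1%, the TAL1 E-box in 24.4% and 23.0% and PU.1 in 9.33% and 7.34%. AP-1 was in 4.10% of regions with GATA and 8.05% of those without (-3.95 points, -6.57 to -1.24). CTCF was in 0.560% and 4.38% (-3.82 points, -5.63 to -2.15). A GATA and a RUNX match together were found in 83 regions (6.67%), and 248 regions (19.9%) had no match to GATA, RUNX, MYB, the TAL1 E-box, PU.1 or CEBP.

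The 20 lost regions with the highest mean percentile, from 87.2 to 95.9, all lay in introns, 6 of them in a first intron. Their scores were 229.32 to 484.2 in control 1 and 181.33 to 389.33 in control 2, and the nearest ATRA peak was 1154 bp away, at MBP, the myelin basic protein gene. The first was in MYO5B, with scores of 402.73 and 362.53 in intron 22 of 39. The second was in MARCHF1, with 378.8 and 331.32 in intron 3 of 9 and no ATRA peak within 139753 bp. The third was in ANGPT1, which encodes the ligand of the TIE2 receptor on stem cells and endothelium, with 384.04 and 287.27 and 2 GATA matches. The other hosts, in order, were DGKH, FAM53B, CD36, ARPP21, MARK2, UBE2E1, TMEM74, VRK1, SYTL2, ZBTB16, TTLL11, MTFR1, NUGGC, MBP, BCL9, PTH2R and PATJ. MARK2 is a kinase of microtubule-binding proteins, VRK1 a nuclear kinase, SYTL2 an effector of RAB27 in granule transport and BCL9 a coactivator of Wnt signalling. GATA matches were in 7 of the 20 (MYO5B, MARCHF1, ANGPT1, ZBTB16, MTFR1, NUGGC and PATJ), MYB matches in 7, TAL1 E-boxes in 6, CEBP matches in 3, RUNX matches in 2 and a PU.1 match in 1. Over all lost regions the shares were 43.1% for GATA, 28.5% for MYB, 23.6% for the TAL1 E-box, 15.1% for CEBP, 15.6% for RUNX and 8.20% for PU.1. GATA was thus no more frequent in these 20 than in all lost regions, and less so than in the strongest set of 311 (54.0%).

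The 1244 lost regions lay in 1114 host genes, which is 17.8% of the 6255 protein-coding genes with a control region inside them. Most hosts, 966, had 1 lost region, 117 had 2 and 31 had 3 or more. Long genes hold more regions, and hosts had a median length of 131918 bp against 75955 bp for all genes with a control region. A kept region was present in 723 hosts (64.9%), compared with 81.6% of all genes with a control region. A gained region was present in 400 hosts (35.9%), compared with 25.5% of all genes with a control region. A host has by the rule at least 1 control region that was not kept. In 329 hosts every control region was lost, and 12 of these had 2 or more. PEX14, of peroxisome import, lost 3 of 3, and the others, with 2 each, were ARPP21, SMAD7, DIP2B, RPS6KA3, KANSL1, ACBD6, LZTFL1, TNFRSF10A, ECE1, ITGAM and NACC2. Of these 12 genes, DIP2B and KANSL1 also had 2 gained regions each, ECE1 and ITGAM had 1 each, and the rest had 0.

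ZBTB16 had the most lost regions, 6 of the 10 control regions inside it, with 3 kept, 1 kept in ATRA 1 only and 0 gained. It spans 197725 bp on the plus strand of chromosome 11, and its product PLZF is a transcription factor of progenitors that is fused to the retinoic acid receptor alpha in rare leukemias. The lost regions had scores of 116.11, 71.76, 184.95, 62.62, 308.62 and 253.07 in control 1, from the 5′ to the 3′ end of the gene. In control 2 they had 119.93, 50.19, 206.48, 103.73, 235.59 and 74.27. The third and the fifth were thus high in both lists, the second was near the lowest score of a list in control 2, and the sixth differed most between the lists. GATA matches were in 5 of the 6, with 4 copies in the first and 0 in the second. The first to the fourth lay in intron 2, and the nearest ATRA peak was 548 bp from the sixth and 4262 to 22589 bp from the others.

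MARCHF1, RUNX2, RCOR1, KCNMA1, ANKRD44, DLGAP1, GSE1 and PDE4B had 4 lost regions each. In RCOR1, which encodes the CoREST corepressor, 4 of 5 control regions were lost and 0 were kept in all lists, 2 regions were gained, and 3 of the 4 had GATA. The RCOR1 scores ranged from 56.26 to 275.63 in control 1 and from 51.89 to 177.87 in control 2. In RUNX2, a RUNX factor known best for bone and also made in blood progenitors, 4 of 6 were lost and 2 regions were gained. Its lost regions had scores of 117.63, 135.35, 99.6 and 74.63 in control 1 and 88.01, 66.44, 72.9 and 105.07 in control 2, and 1 of them had GATA. In ANKRD44, 4 of 11 were lost and 3 of these had GATA. In GSE1, 4 of 11 were lost and 0 of these had GATA. PDE4B, a cAMP phosphodiesterase, lost 4 of 14 and had 4 gained regions, and its lost regions were weak, with a mean percentile of 19.8. NTM, a neuronal adhesion gene, came next with 3 lost of 12 and a mean percentile of 76.2.

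**Figure D5:**
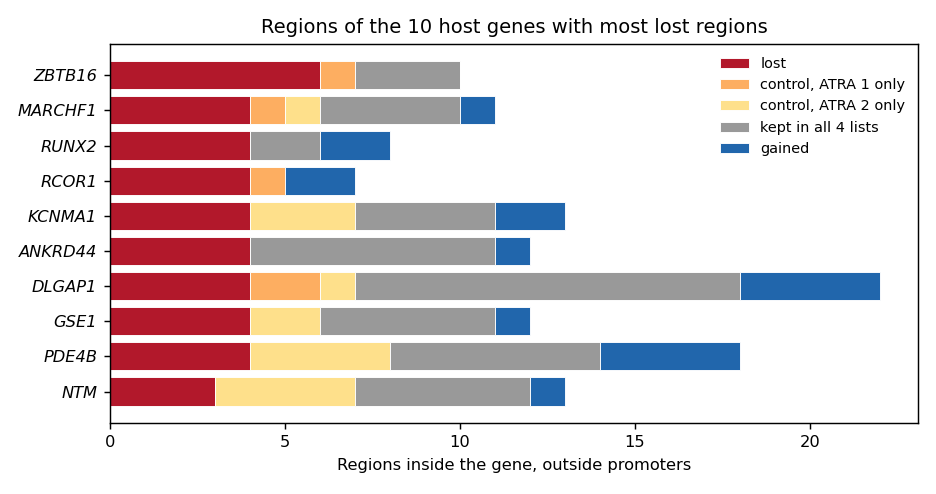
Number of regions inside each of the 10 genes with most lost regions (bars, split by the lists that held a peak; regions of single lists are left out). ZBTB16 has 6 lost, 3 kept and 0 gained regions, RCOR1 4 lost and 0 kept, and DLGAP1 the most kept, 11.

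Of the 362 genes on 11 lists of blood and leukemia genes, 51 were hosts. Of all genes with a control region, 17.8% were hosts. A gene with more control regions has more chances to be a host. The share of control regions lost is therefore given too, and it was 10.7% over all control regions inside genes. Among GATA factors and partners, 7 of 10 genes with a control region hosted a lost region (GATA1, ERG, FLI1, LDB1, SSBP2, SSBP3 and TCF12). Of their 33 control regions, 9 (27.3%) were lost, against that 10.7%. The lists were written with earlier results known, so these counts are a description. LDB1 encodes the adaptor that joins GATA1 and TAL1 to distant enhancers, SSBP2 and SSBP3 encode proteins that bind LDB1, and TCF12 encodes an E-protein that pairs with TAL1. The GATA1 region had a score of 137.33 in control 1 and 60.6 in control 2, and the nearest ATRA peak was 11329 bp away. The LDB1 region, in intron 1, had 94.05 and 143.37 and an ATRA peak 1951 bp away. Of the 9 lost regions of the list, 3 had a GATA match themselves, in GATA1, ERG and SSBP2.

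Among blood transcription factors, 9 of 24 genes with a control region were hosts. Of their 89 control regions, 19 (21.3%) were lost, against 10.7% of all control regions inside genes, and 9 of the 19 had GATA. Besides ZBTB16, RUNX2, ERG and FLI1 the hosts were ETS1, FOXP1, GFI1, IKZF2 and STAT3. GFI1, a repressor that promotes granulocyte fate, had a region with scores of 138.49 and 148.93 in control 1 and control 2. ETS1, of lymphoid cells and early progenitors, had one with 151.14 and 110.81. Neither had a GATA match. In FLI1, an ETS factor of megakaryocytes and stem cells, both lost regions lay in intron 1, with scores of 117.49 and 115.6 in control 1 and 78.65 and 73.31 in control 2.

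Of the stem and progenitor genes, 3 of 12 were hosts, and 3 of 28 control regions (10.7%) were lost, near the 10.7% of all control regions inside genes. They were ANGPT1, CD34 and ITGA4, an integrin subunit of progenitor adhesion, and all 3 regions had GATA. The CD34 region had scores of 74.93 and 147.49 and RUNX and MYB matches too. Of the mast cell, erythroid and megakaryocyte genes, 2 of 10 were hosts, ANK1 and PRG2, 2 of 19 control regions (10.5%) were lost, and 0 of these 2 had GATA. Of the chromatin regulators mutated or fused in leukemia, 6 of 33 were hosts (18.2%), near the background, and 9 of 93 control regions (9.68%) were lost. All 9 had a GATA match, in ARID1A, EED, KDM6A, MLLT10, SETD2 and STAG2, which encode subunits or enzymes of chromatin remodelling, Polycomb, histone methylation and cohesin complexes or, for MLLT10, a partner of the histone methyltransferase DOT1L. The KDM6A region lay 127870 bp from any ATRA peak.

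Of the retinoid response genes, 4 of 9 were hosts, and 4 of 27 control regions (14.8%) were lost. These were RARB and RXRA, which encode receptors, NCOA1, a receptor coactivator, and ASB2, a ubiquitin ligase subunit induced by ATRA in leukemia cells. Their scores were low, from 54.02 (NCOA1) to 87.84 (ASB2) in control 1 and from 58.67 (NCOA1) to 87.71 (ASB2) in control 2, and 0 of 4 had GATA. Of the neutrophil maturation genes, 1 of 8 was a host and 2 of 11 control regions (18.2%) were lost. It was ITGAM, the CD11b integrin subunit, with regions of 77.64 and 57.11 in control 1 and 53.32 and 56.62 in control 2. ITGAM also had 1 gained region. Of the azurophil granule genes, 1 had a control region and 0 were hosts. Of the cell cycle and replication genes, 3 of 10 were hosts (CCND3, CDK6 and RB1) and 3 of 28 control regions (10.7%) were lost, and the RB1 region had a GATA match.

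Of the kinases and phosphatases, 9 of 36 genes were hosts and 12 of 109 control regions (11.01%) were lost, near the 10.7% of all control regions inside genes. Among the hosts were MAP3K5, MAPK14, PRKCB, PRKCQ, PTK2B, PTPRC, PTPRE and SOS1, and 6 of the 12 regions had GATA. PRKCB, a protein kinase C that acts in the activation of the phagocyte oxidase, had 3, the strongest with 186 and 203.63. The PTPRE region lay 70 bp from an ATRA peak.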

How the data were processed

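As the methods state, the authors removed adapters from ATAC-seq reads of 4 HL-60 libraries, used Bowtie for alignment to hg19 and ran MACS2 at default settings for the peaks; the submitters' processing notes name cutadapt, Bowtie2, MACS and MACS2. There was 1 list per library. Tool versions, a shift to the Tn5 cut site and duplicate removal are not given in the sources used here. The deposited lists had 5 columns, and their score, from 50 to 3100, is the peak caller's value on a scale that is not stated. It was used only for ranks within a list. The lists hold no counts, so the depth of each library is unknown, and a deeper library can give more and wider peaks.

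Groups were taken from sample titles. The study describes the replicates as independent biological ones, and what was independent in them is not stated in the labels. Genes and 78582 TSS of 20176 protein-coding genes came from GENCODE release 44 on GRCh37, and coordinates are 1-based. Exons took precedence over introns, and a region in several genes counted for each as a host. Motif shares had 95% Wilson and their differences 95% Newcombe intervals. The GATA share per library was tested by an exact permutation of the 4 libraries. Merging, counting and motif search were tested on simulated data. Named genes were the 20 highest-ranked regions, the 10 hosts with most regions, every host on a list, and the regions at the limits of the rule, with the exceptions stated. A few genes, 1 gene list and 1 sequence chosen by these rules are not reported here. The members, motifs and gene lists were chosen with earlier results of these data known. Python 3.11.15, numpy 2.4.6, pandas 2.3.3, scipy 1.17.1, pysam 0.24.0, samtools 1.23.1 and matplotlib 3.10.9 were used.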

Additional observations from a re-analysis of the deposited data

How the results depend on the processing

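Over 75 alternatives 0 values changed sign. Only the GATA differences could do so, since the counts, shares, distances and percentiles cannot fall below 0. The number of lost regions was judged by a factor of 1.5 and the library GATA difference by its direction alone. The other values were judged by the 95% interval of the value reported. In all, 26 values moved past these limits. Within them, equal numbers of peaks per list gave 1854 lost regions, and searching whole peaks gave a library GATA difference of 0.276 points in place of 4.92. With peaks of score 100 or more there were 586 lost regions, 12.3% of control regions inside genes, at median percentiles of 42.3 in control 1 and 40.3 in control 2. Equal numbers of peaks per list gave 16.6% lost and a GATA difference from kept regions of 18.1 percentage points. Peaks cut to 200 bp gave 11.9% and 22.2 points, joining peaks within 500 bp gave 9.75%, and centres in no exon gave 11.3%. Searching 100 bp gave a GATA difference of 19.96 points, the whole region 8.14 and the backward letters 2.54. Regions at percentiles 40 to 80, an alternative chosen after seeing the data, gave 32.5 points, and the centre of the highest control peak, chosen likewise, gave 25.2. Leaving out 1 library at a time gave 1453 to 3432 lost regions (3329 without ATRA 2, 3432 without control 1, 2982 without control 2), a share of 12.4% to 28.8%, a GATA difference of 10.5 (without ATRA 2) to 24.4 points (13.4 without control 1), median percentiles of 25.8 to 39.8 in control 1 and 23.2 to 43.4 in control 2, a TSS distance of 18552 to 20307 bp and a library GATA difference of 3.64 to 6.19 points. With the replicate number as a block the library difference was 4.92 points, with an exact permutation p of 0.5, the smallest that 2 pairs allow. The replicate differences of control and ATRA correlated at 0.263 over 23653 regions in all lists, and with 2 pairs the numbers were not taken to pair the samples. The lists hold no counts, so what depth limits could not be measured.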

Other observations

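GATA sites bound together with TAL1 are known to carry the letters CTG some bases before the GATA letters. For lost regions 753 GATA matches were counted here, a number that differs from the copies given above. CTG stood 8 bases before the match in 40 of them (5.31%), the highest of 21 spacings from 0 to 20 bases. The other spacings had 1.59% to 3.85%. In kept regions the same spacing held 56 of 1816 matches (3.08%), also the highest, with 1.54% to 2.64% at the others. In gained regions it held 10 of 575 (1.74%), within the range of the other spacings, 1.04% to 3.48%. The spacing was singled out after its values were seen, and no test was made of it.

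The share of control regions inside genes that were lost ranged from 6.62% on chromosome 19 and 7.99% on chromosome 7 to 15.1% on chromosome 14, over chromosomes with at least 50 such regions.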
